A study of Mus musculus with 25 samples.

Results

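The genes described here encode the major milk proteins and a few other products of milk-secreting cells: the caseins Csn1s1, Csn1s2a, Csn1s2b, Csn2 and Csn3, the whey protein gene Wap, Glycam1, Olah, Btn1a1 and Xdh. They were chosen by name, with earlier results of these data known. They are 10 of 19937 genes measured with a probe set of a single gene symbol. Each had 1 probe set, so no choice between probe sets was needed. Expression was measured on 25 Affymetrix whole-transcript arrays of tissue from the mouse mammary gland. By their labels, 10 arrays are tumors of K8-creERT2/PIK3CA H1047R mice on a mixed FVB/CD1 background, 2 reference glands of K8-creERT2 control mice on that background, 10 tumors of Lgr5-creERT2/PIK3CA H1047R mice on a mixed FVB/C57/BL6 background and 3 reference glands of Lgr5-creERT2 control mice on that background. The tumor mice were injected with tamoxifen as adults of 7 to 8 weeks, which releases the Cre recombinase in keratin 8 (K8) or Lgr5 positive cells and so starts expression of the mutant PI3-kinase subunit there. The labels give the same protocol text for the control glands and do not say whether those mice received tamoxifen, at which age the tissue was taken, or whether an animal was virgin, pregnant or lactating. Strain differs wherever the lines are compared, so the effects of line and strain cannot be told apart.

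Milk is made by alveolar cells of the luminal epithelium. Prolactin acts through the kinase JAK2 and the transcription factor STAT5, with the alveolar factor ELF5, to turn on the casein and whey protein genes late in pregnancy, and they are switched off again when suckling ends. Caseins are the calcium-binding proteins that form the micelles of milk, with kappa-casein (Csn3) on the micelle surface. Whey acidic protein (Wap) stays in solution, the butyrophilin of Btn1a1 and the xanthine oxidoreductase of Xdh coat the secreted fat globule, and the thioesterase of Olah ends fatty acid synthesis early to give the medium-chain fatty acids of milk. Glycam1 is made both by the lactating gland and by the high endothelial venules of lymph nodes, where it carries ligands for the lymphocyte homing receptor L-selectin.

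Values are the deposited log2 values, and differences are between arrays for 1 gene at a time. A percentile places a probe set's value among all genes' values and is no measure of RNA amount, since probe sets differ in brightness. The array medians lay between 6.34 and 6.43, and the number of arrays limits the precision. The labels do not say whether tumors or glands came from separate animals, so the spread behind each p-value is that of the samples hybridised and could be technical. Marker lists went against several labels. The mean of 11 adipocyte genes was 12.39 to 12.60 in Lgr5 tumors 2, 6, 7, 8 and 9 and 7.37 to 9.44 in the arrays labelled gland. The other 15 tumors had 7.44 to 11.13. The mean of 14 squamous genes was 9.37 in K8 tumor 9 and 9.66 in Lgr5 tumor 10. It did not exceed 7.74 in the remaining 18 tumor arrays and was 8.35 to 10.44 in those labelled gland. Directions below are therefore directions between sets of labelled arrays. All arrays carried luminal epithelial genes, with a mean over 18 genes of 8.52 to 9.15 in Lgr5 tumors 2, 6, 7, 8 and 9 and of 10.10 to 10.92 in the other 20. In whole tissue, fewer cells of a type and less RNA per cell cannot be told apart.

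The caseins lie together on chromosome 5 in the order Csn1s1, Csn2, Csn1s2a, Csn1s2b and, after the genes Prr27, Odam and BC037156, Csn3 (RefSeq gene table, GRCm38.p6). The 250 bases before the gene start are shown for 4 members, because Csn2 and Csn1s2a were closest in pattern over the K8 tumors (described below), Csn1s1 is their neighbour, and Glycam1 lies on another chromosome and was also high in some Lgr5 tumors with low Wap. The sequences are RefSeq's on GRCm38.p6, read 5′ to 3′ towards the gene, and capitals mark matches to the STAT5 motif TTCNNNGAA or to TTGGCA, the core bound by the factor NF1, on either strand.
Csn1s1, chr5:87665958-87666207, plus strand: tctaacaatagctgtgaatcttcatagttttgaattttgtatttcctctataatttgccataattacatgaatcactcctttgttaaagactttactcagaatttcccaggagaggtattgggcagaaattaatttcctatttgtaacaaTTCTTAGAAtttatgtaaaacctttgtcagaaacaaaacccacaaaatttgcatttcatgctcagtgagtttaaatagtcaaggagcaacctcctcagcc
Csn2, chr5:87699426-87699675, minus strand: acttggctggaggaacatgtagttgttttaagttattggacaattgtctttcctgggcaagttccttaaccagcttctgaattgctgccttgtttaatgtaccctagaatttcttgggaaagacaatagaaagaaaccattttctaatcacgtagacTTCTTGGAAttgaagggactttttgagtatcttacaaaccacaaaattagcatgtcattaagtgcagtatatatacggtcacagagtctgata
Csn1s2a, chr5:87774200-87774449, plus strand: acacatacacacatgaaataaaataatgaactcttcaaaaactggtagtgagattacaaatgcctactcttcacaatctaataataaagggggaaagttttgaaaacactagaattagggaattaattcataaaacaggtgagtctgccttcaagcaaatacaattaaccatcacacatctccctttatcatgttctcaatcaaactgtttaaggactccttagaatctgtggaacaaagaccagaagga
Glycam1, chr15:103565082-103565331, minus strand: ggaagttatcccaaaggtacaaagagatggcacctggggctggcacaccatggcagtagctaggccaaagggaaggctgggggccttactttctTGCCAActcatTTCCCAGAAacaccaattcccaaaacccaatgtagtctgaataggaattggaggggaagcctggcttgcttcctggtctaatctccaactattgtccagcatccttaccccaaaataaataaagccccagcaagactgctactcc
A promoter window was found for 6 of the 10 members, and the windows of Csn1s2a, Wap and Olah held no match to these motifs. TTCNNNGAA reads the same on both strands. It occurred as TTCTTAGAA 100 to 92 bases before the start of Csn1s1, as TTCTTGGAA 93 to 85 bases before that of Csn2 and as TTCCCAGAA 145 to 137 bases before that of Glycam1. The Glycam1 window also held TGCCAA, the reverse complement of TTGGCA, 156 to 151 bases before the start, with no overlap between the matches. Of all 32851 promoter windows of this length, 7.02% held TTCNNNGAA and 12.3% held TTGGCA. The third motif searched, the TATA box TATAAA, was in 12.4% of all windows and in none of the 6. A match is a string of letters, not a measured binding site.

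Set against the reference glands of their line, the tumors had lower Wap and Olah in both lines, and no member rose. Csn1s2b was also called lower in the K8 line. That call rests on 1 array, K8 gland 2 (8.99), without which the difference was 0.02. Between the tumor groups, Csn3 and Btn1a1 were higher in the K8 tumors. In arrays labelled Lgr5 tumor against Lgr5 gland 2 of 10 members fell, where limma called 15.9% of all 19937 genes, 5.28% higher and 10.6% lower. In K8 tumor against K8 gland 3 of 10 fell, against 9.1% of all genes called, 3.42% higher and 5.69% lower. In K8 tumor against Lgr5 tumor 2 of 10 rose, against 21.3% called, 12.3% higher and 9.0% lower. The median log2 difference of the members was -1.09, -1.99 and 0.39 in these comparisons, beside -0.01, -0.01 and 0.01 over all genes. A call is a limma Benjamini-Hochberg adjusted p under 0.05 over all genes, and errors beside log2 differences are SEs of that fit. Neither K8 gland against Lgr5 gland nor the difference between the tumor-gland contrasts had a called gene (limma, 0.0% of 19937, with 319 and 883 genes at an unadjusted p under 0.05). In these last comparisons 0 of 10 members passed, with 1 and 2 at an unadjusted p under 0.05. The difference between lines in the tumor-gland contrast was thus tested and did not pass for any member.

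**Figure D1:**
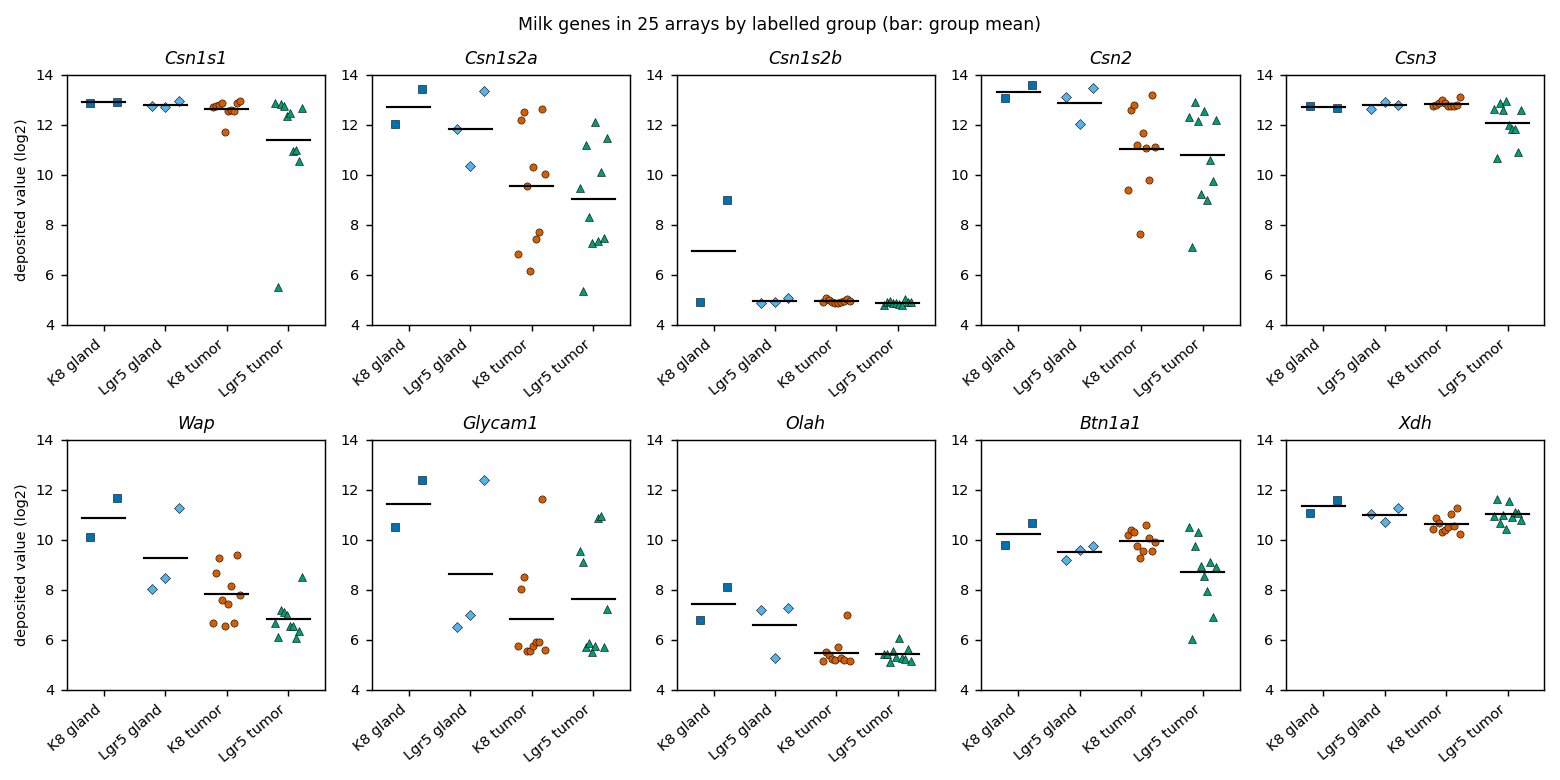
Deposited log2 value of each milk gene (vertical axis, 4 to 14) in every array, by labelled group (horizontal axis); points are arrays and bars are group means. Csn1s2b sits between 4.78 and 5.08 in all arrays except K8 gland 2, at 8.99, whereas Csn2 and Csn1s2a spread over several log2 units within each tumor group.

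Csn2 encodes beta-casein. Its value was 13.06 and 13.57 in the K8 glands and 13.11, 12.01 and 13.47 in Lgr5 glands 1, 2 and 3. In the K8 tumors it was 7.62 to 13.17 with a median of 11.15, and in the Lgr5 tumors 7.09 to 12.92 with a median of 11.36. Lgr5 gland 2 was the lowest gland, and the groups overlapped: 5 of 10 Lgr5 tumors lay within the range of the Lgr5 glands, and K8 tumor 9 lay between the K8 glands. Csn2 differed by -2.09 ± 1.09 in the Lgr5 line (limma adjusted p = 0.192) and by -2.28 ± 1.29 in the K8 line (limma adjusted p = 0.289), and neither passed. The lowest values were those of Lgr5 tumor 2 (7.09) and K8 tumor 5 (7.62).

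Csn1s2a, which encodes an alpha-S2 casein, had the widest range of the members. Its range over the 25 arrays was 8.05 on the log2 scale, larger than that of 99.99% of genes, although its SD of 2.40 was below the 2.45 of Glycam1. It was 12.01 and 13.41 in the K8 glands and 11.81, 10.34 and 13.34 in Lgr5 glands 1, 2 and 3. The K8 tumors spanned 6.16 to 12.62 with a median of 9.78, and the Lgr5 tumors 5.35 to 12.12 with a median of 8.89. In each line 7 of 10 tumors lay below every gland and 3 lay within the range of the glands. The difference was -2.82 ± 1.40 in the Lgr5 line (limma adjusted p = 0.171) and -3.18 ± 1.65 in the K8 line (limma adjusted p = 0.244), and neither passed the test despite its size. K8 tumors 2, 3 and 9 had 12.19, 12.51 and 12.62, while K8 tumors 5 and 1 had 6.16 and 6.84.

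Csn1s1 encodes alpha-S1 casein and Csn3 kappa-casein, and both had bright probe sets in most arrays. Such values lie near the top of the deposited range, which ends at 13.94. Differences there can understate the change, so level values need not mean equal RNA. Csn1s1 was 12.88 and 12.89 in the K8 glands and 12.75, 12.69 and 12.93 in the Lgr5 glands, and its mean over all arrays lay at the 99.3 percentile of genes. It was 11.71 to 12.95 (median 12.73) in the K8 tumors and 5.52 to 12.86 (median 12.40) in the Lgr5 tumors. The low Lgr5 tumors were number 2 at 5.52, number 9 at 10.55, number 7 at 10.95 and number 8 at 11.00. No contrast passed: the difference was -1.39 ± 0.95 in the Lgr5 line, -0.26 ± 1.12 in the K8 line and 1.23 ± 0.64 between tumors (limma adjusted p = 0.333, 0.938 and 0.175). The last changed sign to -0.07 without Lgr5 tumors 2, 6, 7, 8 and 9.

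Csn3 was 12.73 and 12.67 in the K8 glands, 12.61, 12.91 and 12.79 in the Lgr5 glands, 12.73 to 13.11 (median 12.79) in the K8 tumors and 10.67 to 12.95 (median 12.28) in the Lgr5 tumors. The K8 tumors were nearly level, close to the top of the deposited range. The 5 lowest Lgr5 tumors were numbers 2, 9, 7, 8 and 6 (10.67, 10.91, 11.81, 11.83 and 11.98), the arrays with high adipocyte and low epithelial means. Csn3 was higher in the K8 tumors by 0.75 ± 0.23, a fold of 1.68 (limma adjusted p = 0.0269). The groups overlapped, with 8 of 10 K8 tumors within the range of the Lgr5 tumors. The difference was 0.11 without Lgr5 tumors 2, 6, 7, 8 and 9 (limma adjusted p = 0.689) and 0.21 with the epithelial mean as a covariate (limma adjusted p = 0.658). It was 0.72 without Lgr5 tumor 7 or without Lgr5 tumor 8 alone (limma adjusted p = 0.0518 and 0.0529), and passed in neither case. Against glands Csn3 differed by -0.69 ± 0.34 in the Lgr5 line and 0.13 ± 0.40 in the K8 line, and neither passed, although all 10 K8 tumors lay at or just above the higher K8 gland.

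Csn1s2b encodes the second alpha-S2 casein and is the neighbour of Csn1s2a. It was 4.91 in K8 gland 1 and 8.99 in K8 gland 2. In the other groups it was 4.88, 4.89 and 5.08 in the Lgr5 glands, 4.86 to 5.05 (median 4.92) in the K8 tumors and 4.78 to 5.02 (median 4.90) in the Lgr5 tumors. Thus 1 array of 25 carried a clear signal, at the 74.2 percentile of that array's genes, and the mean over arrays was at the 7.74 percentile. Csn1s2b fell by 2.02 ± 0.48 on the log2 scale in the K8 tumors against the K8 glands (limma adjusted p = 0.0172), with 5 of 10 tumors below both glands and 5 between them. That call rests on K8 gland 2: without it the difference was 0.02 (limma adjusted p = 0.975). K8 gland 2 also had the highest Csn2, Csn1s2a, Wap, Olah and Btn1a1 of all arrays. Arrays with Csn1s2a as high as 13.34 (Lgr5 gland 3) or 12.62 (K8 tumor 9) had Csn1s2b at 5.08 and 5.01.

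Wap was lower in the tumors of both lines. Its value was 10.10 and 11.69 in the K8 glands and 8.03, 8.47 and 11.28 in Lgr5 glands 1, 2 and 3. It was 6.56 to 9.40 (median 7.70) in the K8 tumors and 6.08 to 8.52 (median 6.61) in the Lgr5 tumors. All 10 K8 tumors lay below both K8 glands, and 9 of 10 Lgr5 tumors lay below every Lgr5 gland, Lgr5 tumor 10 being the exception. Wap fell by 3.07 ± 0.77 in the K8 line, a fold of 8.4 (limma adjusted p = 0.0207), and by 2.44 ± 0.65 in the Lgr5 line, a fold of 5.42 (limma adjusted p = 0.0189). The K8 call was lost without K8 gland 1 (-3.86, limma adjusted p = 0.134) or K8 gland 2 (-2.28, limma adjusted p = 0.304), and the Lgr5 call without Lgr5 gland 3 (-1.43, limma adjusted p = 0.185) or without Lgr5 tumors 2, 6, 7, 8 and 9 (-1.96, limma adjusted p = 0.187). Between tumors Wap differed by 1.01 ± 0.44 and did not pass (limma adjusted p = 0.105); without Lgr5 tumor 10 the difference was 1.19 (limma adjusted p = 0.0429).

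Olah, the thioesterase of medium-chain fatty acids, was lower in the tumors as well. It was 6.78 and 8.13 in the K8 glands and 7.21, 5.29 and 7.29 in Lgr5 glands 1, 2 and 3. It was 5.14 to 6.98 (median 5.26) in the K8 tumors and 5.11 to 6.09 (median 5.39) in the Lgr5 tumors. K8 tumor 9, at 6.98, was the only K8 tumor above K8 gland 1, and Lgr5 gland 2 lay among the Lgr5 tumors. Olah fell by 1.97 ± 0.43 in the K8 line (limma adjusted p = 0.0148) and fell by 1.17 ± 0.37 in the Lgr5 line (limma adjusted p = 0.0352). No fold is given, since Olah was dim in the tumors (at most the 36.6 percentile of an array's genes except in K8 tumor 9) and near background the difference can understate the change. The K8 call was lost without K8 gland 1 (-2.65, limma adjusted p = 0.0586) or K8 gland 2 (-1.29, limma adjusted p = 0.284). The Lgr5 call was lost without Lgr5 gland 1 (-0.87, limma adjusted p = 0.238), Lgr5 gland 3 (-0.83, limma adjusted p = 0.228), Lgr5 tumor 7 (-1.16, limma adjusted p = 0.0518) or Lgr5 tumor 8 (-1.15, limma adjusted p = 0.0515).

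The squamous mean moved with these calls: it was 9.76 and 10.05 in the K8 glands, 8.35 to 10.44 in the Lgr5 glands and, leaving aside K8 tumor 9 and Lgr5 tumor 10, no higher than 7.74 in any tumor. Of the squamous genes 13 of 14 fell in each line. K8 tumor 9, with a squamous mean of 9.37, had Olah at 6.98 and Wap at 9.40. Lgr5 tumor 10, with a squamous mean of 9.66, had Olah at 5.15 and Wap at 8.52, and Lgr5 gland 2, with 8.35, had 5.29 and 8.47. Without K8 tumor 9 and Lgr5 tumor 10, 5 members passed in the K8 line (Csn1s2b, Wap, Glycam1, Olah and Xdh) and 2 in the Lgr5 line (Wap and Olah). Other lists moved in the same comparisons. Neutrophil genes fell (4 of 7 in the Lgr5 line and 3 of 7 in the K8 line, medians -1.91 and -2.24). Endothelial genes rose (6 of 6 and 2 of 6, medians 1.02 and 1.09), as did 6 of 10 basal and 4 of 7 measured hormone-sensing luminal genes in the K8 line (medians 2.14 and 1.86). In the Lgr5 line 7 of 9 measured cell cycle genes fell (median -1.32). The part of these cell types, squamous cells included, in the milk gene results was not tested.

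**Figure D2:**
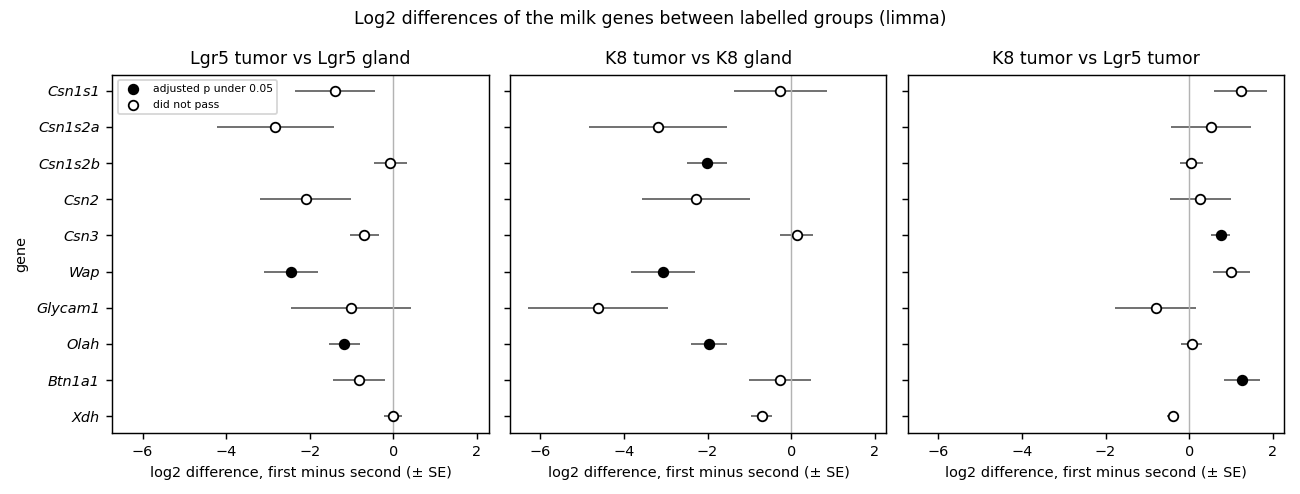
Log2 difference of each milk gene (horizontal axis, first group minus second) in 3 comparisons of labelled groups, with bars of 1 SE from limma; filled points passed an adjusted p of 0.05. Wap and Olah are filled to the left of 0 in both tumor-gland comparisons, and Csn3 and Btn1a1 are filled to the right in the comparison of tumors.

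Glycam1 had high values in arrays of different kinds. It was 10.51 and 12.39 in the K8 glands and 6.53, 6.98 and 12.40 in Lgr5 glands 1, 2 and 3. It was 5.56 to 11.63 (median 5.83) in the K8 tumors, where K8 tumor 9 was highest and K8 tumors 3 and 2 followed at 8.52 and 8.04. It was 5.52 to 10.94 (median 6.55) in the Lgr5 tumors, where tumors 8, 7, 1 and 2 had 10.94, 10.87, 9.54 and 9.13, tumor 10 had 7.22 and the other 5 at most 5.87. The K8 line differed by -4.63 ± 1.68 and did not pass (limma adjusted p = 0.0833), although 9 of 10 K8 tumors lay below both glands; without K8 tumor 9 the difference was -5.16 (limma adjusted p = 0.0215). The Lgr5 line differed by -1.01 ± 1.43 (limma adjusted p = 0.681), and by 0.87 without Lgr5 gland 3 (limma adjusted p = 0.780).

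In the Lgr5 tumors the high Glycam1 values stood beside B and T cell genes. Cd79a, a B cell receptor chain, was 8.45, 8.39, 7.12 and 7.57 in Lgr5 tumors 8, 7, 1 and 2, with 5.83 as the highest of the remaining 6, and Ms4a1, which encodes CD20, was 7.83, 8.01, 7.12 and 7.48 against at most 5.77. The mean of the 6 measured genes of a B and plasma cell list was 7.79, 7.67, 7.76 and 7.35 in these 4 tumors. T cell and lymph node genes were also high there. Their mean over 6 measured genes was 7.74 to 8.40 in these 4 tumors and at most 7.52 in all other arrays. Ccr7, a lymph node homing receptor, was 6.86, 7.60, 8.27 and 8.18 in Lgr5 tumors 1, 2, 7 and 8. The highest of the remaining 6 was Lgr5 tumor 4 at 6.85, level with Lgr5 tumor 1. Lgr5 tumor 4 had a B and plasma cell mean of 7.23 with Glycam1 at 5.87. In the K8 glands, Lgr5 gland 3 and K8 tumor 9, where Glycam1 was 10.51 to 12.40, Cd79a was 4.95 to 5.21, the B and plasma cell mean was 5.83 to 6.42, and Wap was 9.40 to 11.69. In the 4 Lgr5 tumors Wap was 6.08 to 6.66. Of a list of 6 genes of high endothelial venules 3 were measured, and 2 of these, Chst4 (5.20 to 5.45) and Fut7 (5.60 to 6.00), were dim in all arrays. The remaining gene, Madcam1, was 5.59, 5.59, 5.73 and 5.72 in Lgr5 tumors 1, 2, 7 and 8. Its highest value was 7.47, in Lgr5 tumor 5, where Glycam1 was 5.52. A venule source was not tested. The part of lymphoid tissue in the Glycam1 values was not tested.

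**Figure D3:**
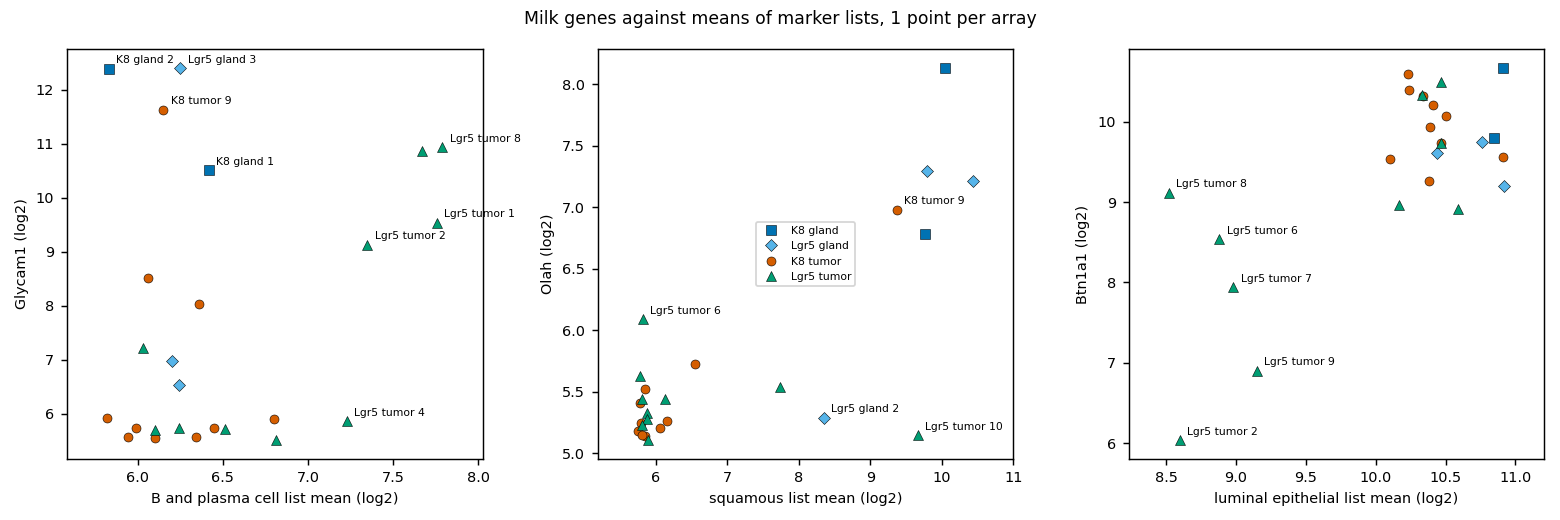
Log2 value of Glycam1, Olah and Btn1a1 (vertical axes) against the mean log2 value of a marker list (horizontal axes), 1 point per array, coloured by labelled group. High Glycam1 lies both at low B cell means (K8 gland 2, Lgr5 gland 3) and at high ones (Lgr5 tumors 1, 2, 7 and 8). The 4 lowest Btn1a1 values belong to arrays with an epithelial mean of at most 9.15. Lgr5 tumor 8, with the lowest epithelial mean (8.52), has Btn1a1 at 9.12, above Lgr5 tumors 5 and 10 (8.97 and 8.91).

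Btn1a1 and Xdh encode partners on the milk fat globule, and they differed in how they varied. Btn1a1 was 9.80 and 10.67 in the K8 glands, 9.20, 9.61 and 9.75 in the Lgr5 glands, 9.26 to 10.60 (median 10.00) in the K8 tumors and 6.04 to 10.50 (median 8.94) in the Lgr5 tumors. It was lowest in Lgr5 tumors 2, 9, 7 and 6 (6.04, 6.90, 7.94 and 8.54). Btn1a1 was higher in the K8 tumors than in the Lgr5 tumors by 1.26 ± 0.43, a fold of 2.4 (limma adjusted p = 0.0396). The groups overlapped, with 9 of 10 K8 tumors within the range of the Lgr5 tumors. This call was lost when any 1 of 12 arrays was left out (K8 tumors 1, 2, 3, 4, 7, 8 and 10 and Lgr5 tumors 2, 6, 7, 8 and 9), with differences of 0.97 to 1.31 and adjusted p of 0.0542 to 0.0765 (limma). Without Lgr5 tumors 2, 6, 7, 8 and 9 together the difference was 0.27 (limma adjusted p = 0.784), and with the epithelial mean as a covariate it was 0.47 (limma adjusted p = 0.668). Against glands it differed by -0.82 ± 0.63 in the Lgr5 line and -0.27 ± 0.74 in the K8 line and did not pass.

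Xdh was the least variable member, with a range of 1.43 over the 25 arrays. It was 11.07 and 11.61 in the K8 glands, 11.02, 10.73 and 11.29 in the Lgr5 glands, 10.22 to 11.29 (median 10.53) in the K8 tumors and 10.45 to 11.65 (median 10.98) in the Lgr5 tumors. Lgr5 tumors 2 and 6, which were low in Btn1a1, had the highest Xdh of the tumors (11.65 and 11.56). The difference was -0.71 ± 0.26 in the K8 line (limma adjusted p = 0.0876), -0.39 ± 0.15 between tumors (limma adjusted p = 0.0675) and 0.00 ± 0.22 in the Lgr5 line (limma adjusted p = 0.992), and none passed. In the K8 line it passed without K8 tumor 9 (-0.78, limma adjusted p = 0.0302). Between tumors it passed when K8 tumor 7, K8 tumor 9, Lgr5 tumor 3 or Lgr5 tumor 5 was left out (-0.46 to -0.43, limma adjusted p = 0.0278 to 0.0445).

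**Figure D4:**
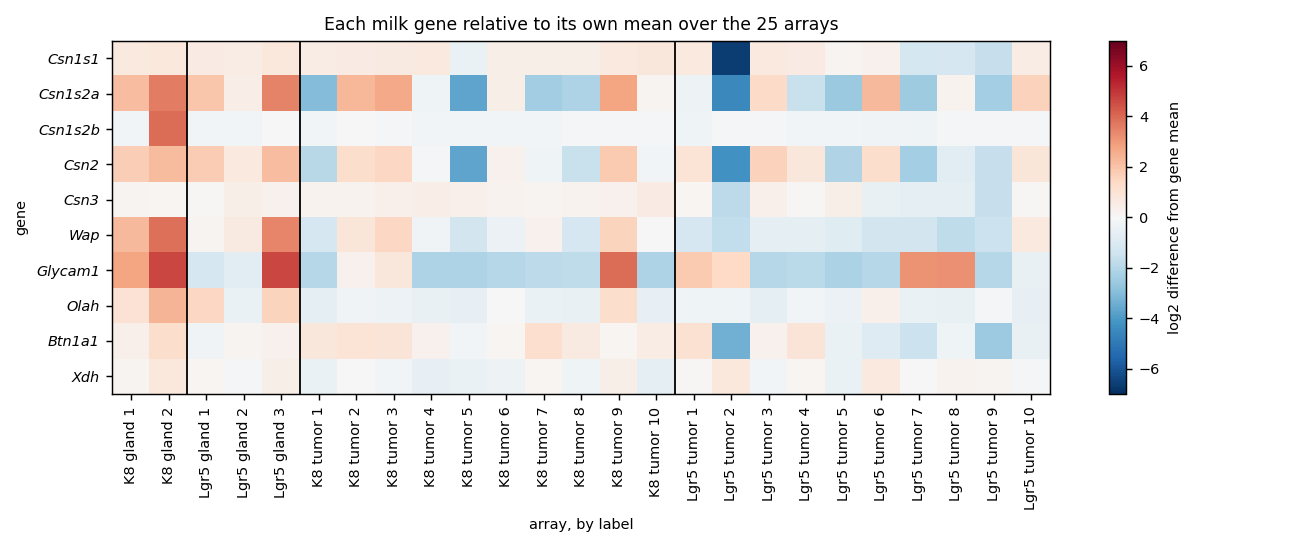
Log2 value of each milk gene (rows) minus that gene's mean over the 25 arrays, for each array by label (columns); red is above and blue below the mean, and black lines separate the groups. Lgr5 tumor 2 is blue for Csn1s1, Csn1s2a, Csn2, Csn3, Wap and Btn1a1, and K8 gland 2 and Lgr5 gland 3 are red for most rows.

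Members were then compared with each other over the 10 K8 tumors, as a description. Csn2 and Csn1s2a were closest, with Pearson r = 0.93 and Spearman rho = 0.98. Leaving out the 2 tumors farthest from the median of Csn2 gave r = 0.93, and leaving out K8 tumor 9 gave r = 0.91. Wap followed Csn2 with r = 0.91 (rho = 0.87), and r = 0.88 without K8 tumor 9. Olah and Glycam1 had r = 0.87 (rho = 0.66), which rests on K8 tumor 9: without it r was 0.41. By rho, Olah was closest to Csn2 (0.83) and Glycam1 to Xdh (0.88). The highest r of Csn3 was 0.25, with Csn1s1 (rho = 0.61). This r was -0.36 without the 2 tumors farthest from the median of Csn3. It was 0.76 without the 2 farthest from the median of Csn1s1. The K8 tumor values of Csn3 spanned only 12.73 to 13.11, near the top of the deposited range. These tumors share strain, line and array platform, and 10 points fix a correlation loosely. The Lgr5 tumors fall into separate sets by adipocyte mean, so a correlation over them can reflect those sets. Over the 10 Lgr5 tumors r was 0.87 for Csn2 and Csn1s2a and 0.50 for Csn2 and Wap. It was -0.34 for Olah and Glycam1 and 0.88 for Csn3 and Btn1a1. There Csn1s2a was 12.12 and Csn2 12.54 in tumor 6 but 5.35 and 7.09 in tumor 2, although both have an adipocyte mean above 12.

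**Figure D5:**
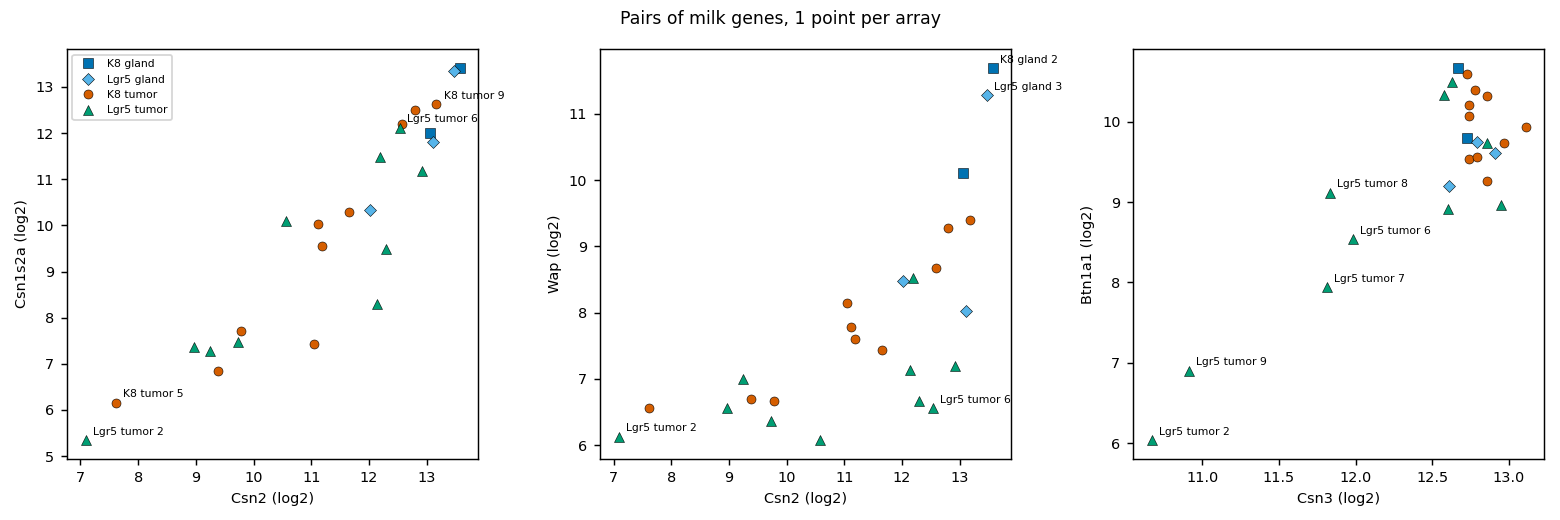
Log2 values of pairs of milk genes, 1 point per array: Csn1s2a against Csn2, Wap against Csn2, and Btn1a1 against Csn3. Csn1s2a rises with Csn2 across the tumors, Wap stays below 8 in several arrays with Csn2 above 12 (among them Lgr5 tumor 6), and Btn1a1 and Csn3 are both lowest in Lgr5 tumors 2 and 9.

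Other milk genes were examined as lists. Of 15 other milk protein and milk secretion genes 12 were measured, and 3 fell in each tumor-gland contrast. Pigr, the receptor that carries IgA into milk, fell by 2.82 ± 0.84 in the Lgr5 line and by 3.73 ± 0.98 in the K8 line. The acute-phase gene Saa3 fell by 3.12 ± 0.92 in the Lgr5 line and fell by 4.03 ± 1.09 in the K8 line. The folate receptor gene Folr1 fell by 1.37 ± 0.37 in the Lgr5 line, and Cel, the bile salt-stimulated lipase of milk, fell by 3.70 ± 1.01 in the K8 line (limma adjusted p from 0.0201 to 0.0281 for these genes). K8 tumor 9 had values like the glands, with Saa3 at 10.41, Pigr at 10.91 and Cel at 10.73, and Lgr5 tumor 10 had Saa3 at 10.48, against 5.71 to 8.54 for Saa3 in the other tumors. Between tumors Mfge8, a milk fat globule protein, was higher in the K8 tumors by 0.51 ± 0.18 (limma adjusted p = 0.0464), and the other 11 did not pass. The list's median difference was -1.10, -0.87 and 0.34 in the 3 comparisons.

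Of 20 genes of milk fat synthesis, many of which fat cells also use, 11 were lower in the K8 tumors than in the Lgr5 tumors and 9 did not pass. The desaturase gene Scd1 fell by 0.92 ± 0.17, the lipogenic regulator gene Thrsp by 2.36 ± 0.57 and the fatty acid synthase gene Fasn by 1.40 ± 0.34 (limma adjusted p = 0.0103, 0.014 and 0.0143). All 11 adipocyte genes were lower in the same contrast, with a list mean of 9.18 to 12.60 in the Lgr5 tumors and 7.44 to 11.13 in the K8 tumors, and the part of fat cells in this difference was not tested. In Lgr5 tumor against Lgr5 gland all 11 adipocyte genes rose (median 3.15). There Elovl5 and Lpin1 rose and Elovl1 fell (0.62 ± 0.20, 1.88 ± 0.60 and -0.41 ± 0.12), and Scd2 fell by 0.70 ± 0.17 in the K8 line. The list's median difference was 0.62 in the Lgr5 line, -0.39 in the K8 line and -0.70 between tumors.

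Among 13 genes of lactose synthesis and transport, B4galt1, the galactosyltransferase of lactose synthesis, fell by 0.54 ± 0.16 in the Lgr5 line and by 0.83 ± 0.19 in the K8 line. The calcium pump gene Atp2c2 fell by 1.69 ± 0.44 and by 2.16 ± 0.52. In the Lgr5 line 3 of 13 fell, the third being the glucose transporter gene Slc2a1 (-1.54 ± 0.41). In the K8 line 3 fell and 1 rose, the others being Slc35a2 (-0.25 ± 0.06) and Slc7a4 (0.53 ± 0.16). Between tumors Slc7a4 rose by 0.37 ± 0.09 and Ugp2 fell by 0.59 ± 0.13, and the other 11 did not pass. The list's median was -0.36, -0.31 and 0.22.

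Of 25 alveolar regulators 24 were measured. In the Lgr5 line 6 fell and 2 rose: Elf5, the alveolar factor, fell by 1.38 ± 0.38, Xbp1, a regulator of secretory capacity, fell by 0.84 ± 0.18, and the growth hormone receptor gene Ghr rose by 1.44 ± 0.40. In the K8 line 2 fell, Xbp1 by 0.97 ± 0.21 and Stat5a by 0.88 ± 0.23 (limma adjusted p = 0.0148 and 0.0248). Stat5a was 10.04 and 10.26 in the K8 glands and 8.95 to 9.84 in the K8 tumors, with no overlap. Between tumors 7 were higher in the K8 tumors, among them Akt1 (0.32 ± 0.07) and Tfap2c (1.15 ± 0.27), and Ghr was lower by 1.07 ± 0.27. Elf5 was 11.12 to 11.86 in the K8 tumors and 9.10 to 11.42 in the Lgr5 tumors. The list's median was -0.36, -0.01 and 0.34. The epithelial mean, lower in 5 of the Lgr5 tumors, moved with these values, and its part in them was not tested. Of 10 genes tied to the repression of milk synthesis and to involution, Lif fell in both lines (-0.62 ± 0.16 and -0.80 ± 0.19) and Bcl3 fell in the Lgr5 line (-1.06 ± 0.35), while Stat3 (0.40 ± 0.11) and Tgfb3 (0.85 ± 0.29) were higher and Ctsb (-0.35 ± 0.10) lower in the K8 tumors than in the Lgr5 tumors.

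Of 14 listed neighbours of the casein cluster 11 were measured. In Lgr5 tumor against Lgr5 gland 1 of 11 passed, beside 15.9% of all genes. In K8 tumor against K8 gland 2 of 11 passed, beside 9.1%, and between tumors 1 of 11, beside 21.3%. The median differences were -0.02, -0.05 and 0.01 in these 3 comparisons. Odam, a tooth-associated secreted protein gene that lies between Csn1s2b and Csn3, was 6.96 and 6.19 in K8 glands 1 and 2 and 5.21 to 5.60 in the K8 tumors, with no overlap, and fell by 1.17 ± 0.15 (limma adjusted p = 0.00056). It fell by 0.49 ± 0.13 in the Lgr5 line (limma adjusted p = 0.018). Smr3a, which follows Csn3 and Cabs1 in the gene order, was 11.75 in K8 gland 1 and 5.10 to 5.31 in the other 24 arrays, so its fall of 3.32 ± 0.75 in the K8 line rests on 1 array. K8 gland 1 was not the gland with Csn1s2b. It also stood apart on a list of salivary and skin gland genes that includes Smr3a, with a mean over 6 measured genes of 9.02 against at most 6.61 in the other arrays, and it is 1 of the 2 K8 glands behind every K8 tumor-gland value. The part of other gland tissue in those values was not tested. Amtn, an enamel matrix gene, was higher in the K8 tumors than in the Lgr5 tumors by 3.30 ± 0.80. It was 10.40 to 12.67 in the K8 tumors, 5.28 to 8.44 in Lgr5 tumors 2, 6, 7, 8 and 9 and 9.96 to 11.90 in the other 5 Lgr5 tumors. The other 8 measured neighbours passed in none of the 3 comparisons.

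Genes outside the members whose pattern was most like the mean of the 5 caseins over the 25 arrays were Abhd17c (r = 0.82), Desi1 (r = 0.81), Slc28a3, Nectin2 and Acot8 (r = 0.79 each). Tfe3 followed with r = 0.78, and Junb, Sf1, Ppfibp2 and Plagl2 had r = 0.77 each. Without the 2 arrays farthest from the median, Lgr5 tumor 2 and K8 gland 2, r was 0.55 to 0.73 for these 10 genes, and within the 10 K8 tumors it was 0.36 to 0.65. The 25 arrays include the sets that stand apart in their markers, and the correlations are descriptions.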

How the data were processed

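Total RNA (100 ng input) was amplified with NuGen Ovation Pico WTA and hybridised to Affymetrix whole-transcript arrays, per the labels' protocols. The authors deposited log2 values for 34760 probe sets, and affy is named in the submitters' processing notes; the authors' background correction, summarisation and log base were not given in the sources. The log2 scale was read from the range of 4.13 to 13.94. Gene names came from the platform annotation: 21640 probe sets had 1 symbol, 1321 had several and 11799 were unlisted. For each symbol the probe set with the highest mean over 25 arrays was kept, giving 19937 genes.

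Differences were fitted with limma 3.58.1 (R 4.3.3) on 4 group means over all 25 arrays, with eBayes and Benjamini-Hochberg adjustment over all genes; the pipeline was tested on simulated data. No intensity filter was used. Members and gene lists were chosen with earlier results of these data known. The genes named are the 10 members and the 10 genes most correlated with the casein mean after the filter on gene-name patterns. From each pathway list the called genes with the smallest adjusted p are named (at most 4 per comparison). Single marker genes (Cd79a, Ms4a1, Ccr7, Madcam1, Chst4 and Fut7) were chosen after their values were seen. Alternatives are in the closing section.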

Additional observations from a re-analysis of the deposited data

Results flagged for a closer look

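In groups of 10 arrays, a value was singled out when its gap to the nearest array exceeded 0.466 of the group's range (Dixon's 95% critical value). Of 20 pairs of a milk gene and a tumor group, 6 were singled out. The chance rate of about 1 in 20 holds for independent pairs with normally distributed values. Pairs here share arrays and some genes are near background, so no excess over that rate is claimed. Csn1s1 was 11.71 in K8 tumor 5, the lowest of its group, with the next at 12.56. Csn1s1 was 5.52 in Lgr5 tumor 2, with the next at 10.55; that array has an adipocyte mean of 12.60. Wap was 8.52 in Lgr5 tumor 10, with the next at 7.19. In K8 tumor 9 Glycam1 was 11.63, with the next at 8.52, and Olah was 6.98, with the next at 5.73. Lgr5 tumor 10 and K8 tumor 9 are the tumor arrays with squamous means of 9.66 and 9.37. Olah was 6.09 in Lgr5 tumor 6, with the next at 5.63. The causes were not tested.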

How the results depend on the processing

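The counts of milk genes called (2, 3 and 2 in Lgr5 tumor against Lgr5 gland, K8 tumor against K8 gland and K8 tumor against Lgr5 tumor; limma throughout) depended on the processing. In the Lgr5 line the count was 0 with only the compared groups in the fit, with either the epithelial or the adipocyte mean added as a covariate, or when Lgr5 tumors 2, 6, 7, 8 and 9 were dropped, 1 with genes above the median level only, and 5 with array weights; it was 2 (Wap and Olah) when K8 tumor 9 and Lgr5 tumor 10 were dropped along with those 5. In the K8 line it was 1 with genes above the median level, which removes Csn1s2b and Olah, and 5 with array weights, with the adipocyte mean, when K8 tumor 9 and Lgr5 tumor 10 were dropped, and when all 7 of these arrays were. Between tumors it was 1 with only the compared groups, 4 with array weights, and 0 with either covariate, without the 5 arrays and without the 7. Leaving out 1 array at a time gave 0 to 2, 0 to 5 and 0 to 3, and 0 to 1 for the glands and for the difference of contrasts. Leave-outs of sets of arrays were chosen after seeing the data.

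Replicate numbers did not pair the tumors (correlations of same-numbered pairs from -0.15 to 0.51, with 3 of 20 arrays closest to their own number). With the number as a replicate block the counts were 1, 2 and 1.

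Of 1134 member values under alternatives, 1024 kept direction and side of the threshold, and 43 changed sign. Over all of them, 45 lost a call and 24 gained one, with 2 of the lost calls among the sign changes. Many alternatives left out 1 array of a group outside the comparison, which cannot move the difference. The 1024 therefore overstates how stable the values are. Signs changed with the epithelial mean for Csn1s1 (0.39, 0.53 and -0.04 in the 3 comparisons), Csn3 and Btn1a1 in the Lgr5 line (0.06 and 0.29), Btn1a1 in the K8 line (0.22), Xdh in the Lgr5 line (-0.25), and Csn1s2a and Csn2 between tumors (-0.21 and -0.80). With the adipocyte mean they changed for Csn1s1 (0.16, 0.09 and -0.14), Csn3 and Xdh in the Lgr5 line (0.19 and -0.59), and Csn2, Csn3, Glycam1 and Xdh between tumors (-0.22, -0.03, 0.96 and 0.14). Without the 5 arrays they changed for Btn1a1 and Xdh in the Lgr5 line (0.17 and -0.24) and Csn1s1, Csn1s2a, Csn2 and Glycam1 between tumors (-0.07, -0.01, -0.72 and 0.05). Without the 7 they changed for Btn1a1 and Xdh in the Lgr5 line (0.37 and -0.24) and Csn1s1, Csn2 and Olah between tumors (-0.10, -0.85 and -0.04). Without K8 tumor 9 and Lgr5 tumor 10 Olah was -0.14 between tumors. Array weights gave -0.11 for Olah between tumors and -0.04 for Xdh in the Lgr5 line, quantile normalization -0.02 for the latter, and the replicate block -0.05 for Csn3 in the K8 line. Leaving out 1 array spanned 0 for Csn1s2b in the K8 line (-4.06 to 0.02), Csn2 between tumors (-0.14 to 0.65), Glycam1 in the Lgr5 line (-2.06 to 0.87), Olah between tumors (-0.11 to 0.13), Btn1a1 in the K8 line (-0.71 to 0.17) and Xdh in the Lgr5 line (-0.14 to 0.14). The cause was not tested. A K8 gland left alone is assumed to vary like the other groups. The glands number 2 and 3, which limits every tumor-gland value.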
